A study of Homo sapiens with 6 samples.

Results

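The Hippo pathway and the genes driven by its transcription factors were examined as a set of 34 genes in an ovarian cancer cell line treated with the PARP inhibitor Olaparib. The set is a list of gene symbols, with no threshold on measured values, chosen with earlier results of these data known. It comprised 14 upstream kinases, adaptors and regulators, 7 genes of the TEAD transcription complex and 13 target genes, of 63677 genes in the deposited count table. Each symbol matched 1 Ensembl gene. All 34 passed the filter on low counts, with between 546 and 42973 counts in a library.

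UWB1.289 is an established line from a BRCA1-deficient ovarian carcinoma, although the labels give its genotype as WT. Cells received 4 µM Olaparib or the vehicle DMSO for 24 h, with 3 separate cultures in each group, and poly(A) RNA was sequenced. The series' design text gives the Olaparib concentration as 10 µM, whereas the sample labels and the study's methods give 4 µM. Both groups carry the same BRCA1 deficiency, and there is 1 line, 1 dose, 1 time and no untreated arm.

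In the Hippo pathway, the kinases STK3 and STK4 (MST2 and MST1), with the adaptor SAV1, activate the kinases LATS1 and LATS2, which work with MOB1A or MOB1B. LATS kinases phosphorylate the coactivators YAP1 and WWTR1 (TAZ), which are then held in the cytoplasm or degraded. Unphosphorylated YAP1 and WWTR1 enter the nucleus, bind the DNA-binding factors TEAD1 to TEAD4 and switch on genes of growth, adhesion and extracellular matrix. Counts of mRNA measure the transcripts of these genes, not the phosphorylation or location of YAP1.

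The 6 libraries held 35360458 to 39640775 counts assigned to genes, with normalization factors of 0.995 to 1.01 and 5.68% to 6.11% of counts on mitochondrial genes. Of 8 epithelial markers, 7 passed the filter, and their summed level was 12376 to 12786 CPM (counts scaled to a common library size) in DMSO and 12536 to 13164 CPM in Olaparib, whereas WT1 had 8 counts in all libraries together. Of 10 markers of blood, endothelial, fibroblast and liver cells, 5 passed the filter, with a summed level of 45.2 to 48.3 CPM in DMSO and 44.5 to 46.0 CPM in Olaparib, and PECAM1 and LUM had 0 counts. Nearly all of that sum was CDH5, at a mean of 42.9 CPM in DMSO and 40.8 CPM in Olaparib, a gene named after its values were seen. Among the markers, also chosen after their values were seen, PAX8 rose from 305 to 328 CPM (edgeR adjusted p 0.0399 in the test described next) and VWF rose from 1.12 to 1.8 CPM (adjusted p 0.0106). The part of these markers in the results was not tested.

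Most of the Hippo genes differed little between Olaparib and DMSO. CCDC80, a secreted matrix-associated protein, rose by 23.6%, and FJX1, a relative of the Drosophila four-jointed kinase, fell by 15.2%, and both belong to the target genes. None of the 14 upstream genes and none of the 7 TEAD complex genes passed the test, where 3.36% of all genes tested passed. Both lists are small, and whether the roles differ was not tested. The test was edgeR's quasi-likelihood F test, and passing means a Benjamini-Hochberg adjusted p under 0.05 over the 21729 genes with more than 10 counts in total.

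Thus 1 of 34 genes was higher and 1 lower with Olaparib, where 2.15% of all genes tested were higher and 1.21% lower. Together they were 5.88% of the set, against 3.36% of all genes tested and 5.15% of the 13603 genes with a mean of at least 1 CPM, a class that holds all 34. With the further condition of a change above 1.2-fold, CCDC80 alone remained among the higher genes (background 0.723%) and no member among the lower ones (background 0.483%). DESeq2 and limma voom also gave 1 gene under that condition, and at an unadjusted p under 0.05 edgeR gave 3 higher and 6 lower genes, against 7.83% of all genes tested higher and 6.97% lower, and 11.1% and 8.98% of those with at least 1 CPM.

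The median log2 fold change of the set was -0.0037, with 17 genes above 0 and 17 below, and the median over all genes tested was -0.0042. The median absolute log2 fold change was 0.041 in the set and 0.057 over the genes with at least 1 CPM. The lowest member had a mean of 16.8 CPM, so that class also holds genes with fewer counts than any member. The comparison is thus not matched for counts. For the 32 genes that did not pass, the 95% intervals of the change all lay between -14.4%, for TEAD2, and 18.2%, for NUAK2, so changes beyond these bounds lie outside the intervals. In 8 of 34 genes (23.5%) the 3 Olaparib values did not overlap the 3 DMSO values, against 19.3% of all genes tested and 23.8% of those with at least 1 CPM. In a bulk sample, fewer cells of a kind and less RNA per cell cannot be told apart.

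**Figure D1:**
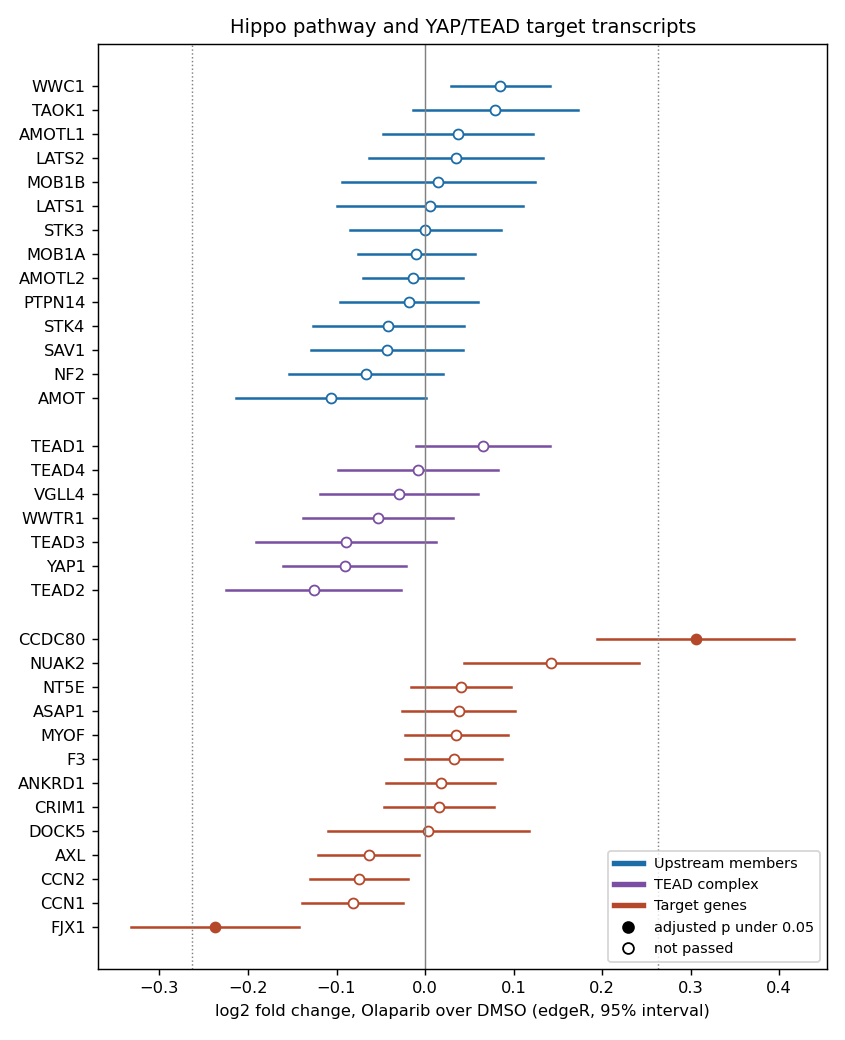
Log2 fold change (Olaparib over DMSO, x axis) of each of the 34 genes, ordered by role, with points for the estimate and bars for the 95% interval of edgeR's fit over 3 libraries a group. CCDC80 lies to the right at 0.31 and FJX1 to the left at -0.24, and the other 32 genes lie between -0.13 and 0.14.

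Among the upstream genes, the core kinases showed small differences. STK3 and STK4 had log2 fold changes of 0.00038 and -0.041, and their adaptor SAV1 had -0.043. LATS1 and LATS2 had 0.0056 and 0.036, and their cofactors MOB1A and MOB1B had -0.0099 and 0.015. These estimates were close to 0 on both sides. TAOK1, a kinase that activates STK3 and STK4, had 0.079. All 8 adjusted p from edgeR were at least 0.444, and the Olaparib and DMSO values of each gene overlapped.

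By library, LATS1 measured 23.2, 20.4 and 20.4 CPM with Olaparib and 21.3, 21.5 and 20.9 CPM with DMSO, so Olaparib replicate 1 was the highest of the 6 and the other 2 Olaparib libraries the lowest. LATS2 measured 24.3, 23.2 and 24.3 CPM with Olaparib and 24.6, 23.2 and 22.4 CPM with DMSO. STK3 ranged from 58.7 to 60.8 CPM with Olaparib and from 55.9 to 61.5 CPM with DMSO. For STK4 the ranges were 77.3 to 84.0 CPM and 77.9 to 86.8 CPM. In each of these 4 kinases the Olaparib range overlapped the DMSO range.

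The balance between paralogues was also close to that in DMSO. Here and below, shares per kilobase use the union of all annotated exons as length, so the size of each share depends on that length. Per kilobase of exon, LATS2 made 62.5% of the summed LATS1 and LATS2 level in DMSO and 63.0% in Olaparib, and STK3 made 48.7% and 49.4% of STK3 and STK4. MOB1A made 93.9% of the MOB1 pair in DMSO and 93.8% in Olaparib. Among the angiomotins AMOTL2 made 83.6% in DMSO and 83.4% in Olaparib, and AMOT, the least abundant, 4.16% and 3.89%.

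In 1 of the 14 upstream genes (7.14%) the groups did not overlap. The share was 19.3% over all genes tested and 23.8% over those with at least 1 CPM. The 1 gene was WWC1 (KIBRA), a scaffold that brings LATS kinases to the membrane. It measured 325, 326 and 317 CPM in the Olaparib replicates and 301, 307 and 303 CPM in the DMSO replicates. All 3 Olaparib libraries were higher than all 3 DMSO libraries. The change of 6.09% (95% interval 2.02% to 10.3%; log2 fold change 0.085, SE 0.028) had an unadjusted p of 0.00418 and an adjusted p of 0.0901 in edgeR, and it passed in DESeq2 with an adjusted p of 0.0496. WWC1 is annotated at chromosome 5, 168291645 to 168472303, in GRCh38.

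NF2 (merlin), a membrane scaffold upstream of LATS1 and LATS2, measured 83.4, 85.5 and 82.8 CPM with Olaparib and 95.9, 83.6 and 84.2 CPM with DMSO, so DMSO replicate 1 stood above the other 5 libraries. Its log2 fold change was -0.067, and 0.0020 without that library. The angiomotins, which hold YAP1 at junctions, had log2 fold changes of -0.11 for AMOT, 0.037 for AMOTL1 and -0.014 for AMOTL2. PTPN14, a phosphatase that binds YAP1, had -0.018, and its DMSO values spread from 198 to 235 CPM. The intervals of these 5 genes all included 0. AMOT had the largest of these differences, -7.08% with an interval from -13.8% to 0.110% and an edgeR adjusted p of 0.349.

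Over the 14 upstream genes, 7 log2 fold changes were above 0 and 7 below, with a median of -0.0048 and a range of -0.11 to 0.085. At an unadjusted p under 0.05 edgeR gave 1 of the 14, WWC1, where 14.8% of all genes tested met that threshold in either direction. After adjustment edgeR and voom gave none of the 14, and DESeq2 gave WWC1.

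Of the TEAD complex, YAP1 (chromosome 11, 102110447 to 102233424) measured 191, 171 and 174 CPM in the Olaparib replicates and 191, 190 and 189 CPM in the DMSO replicates. The DMSO libraries were close together, at 190 ± 0.949 CPM (SD, n = 3). Olaparib replicates 2 and 3 lay below them and Olaparib replicate 1 lay within them, so the groups overlapped. The change was -6.10% (95% interval -10.5% to -1.5%; log2 fold change -0.091, SE 0.034), with an edgeR adjusted p of 0.159. Without Olaparib replicate 1 the log2 fold change was -0.14 and the adjusted p was 0.00847, the 1 leave-one-out fit in which YAP1 passed.

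WWTR1, which encodes TAZ, the paralogue of YAP1, measured 64.0, 59.5 and 62.4 CPM with Olaparib and 67.4, 63.4 and 62.3 CPM with DMSO, with a log2 fold change of -0.053 and an edgeR adjusted p of 0.609. Per kilobase of exon, YAP1 supplied 79.7 ± 0.609% of the summed YAP1 and WWTR1 level in DMSO and 79.2 ± 0.544% in Olaparib (SD, n = 3). The balance between both coactivators thus differed by less than 1 SD. VGLL4, a TEAD-binding repressor that competes with YAP1, had a log2 fold change of -0.030, and its groups overlapped.

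The estimates for the 4 TEAD genes were not all of 1 sign. TEAD1 had a log2 fold change of 0.066, TEAD4 -0.0078, TEAD3 -0.089 and TEAD2 -0.13, and none passed the test. TEAD2 measured 23.2, 24.6 and 24.0 CPM with Olaparib and 24.5, 27.3 and 26.5 CPM with DMSO. Its change was -8.35% (95% interval -14.4% to -1.83%), with an edgeR adjusted p of 0.178, and Olaparib replicate 2 lay just above DMSO replicate 1. TEAD3 measured 22.4, 23.2 and 23.2 CPM with Olaparib and 23.6, 23.3 and 26.2 CPM with DMSO. Its groups did not overlap, but the closest values were almost equal, and the adjusted p was 0.424.

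Per kilobase of exon, TEAD4 was the most abundant TEAD transcript, at 38.1 ± 0.838% of the 4 in DMSO and 38.7 ± 0.405% in Olaparib (SD, n = 3). TEAD1 made 21.5 ± 0.958% and 23.0 ± 1.03%, TEAD2 21.1 ± 0.638% and 19.8 ± 0.511%, and TEAD3 19.3 ± 1.21% and 18.5 ± 0.277% in DMSO and Olaparib. In DMSO, TEAD1 and TEAD2 were within 1 SD of each other, and the SD covers the spread between libraries, not the choice of length. Before division by length TEAD1 was the highest of the 4, at a mean of 95.5 CPM in DMSO against 36.0 CPM for TEAD4. The order thus depends on the exon lengths used, 10700 bases for TEAD1 and 2275 for TEAD4. Over the 7 TEAD complex genes the median log2 fold change was -0.053, with 1 gene above 0 and 6 below. At an unadjusted p under 0.05 edgeR gave 2 of the 7, YAP1 and TEAD2, both lower. Of all genes tested, 6.97% were lower at that threshold. After adjustment edgeR, DESeq2 and voom each gave none of the 7.

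Of the 13 target genes, 2 (15.4%) passed, against 3.36% of all genes tested and 5.15% of those with at least 1 CPM. In 6 (46.2%) the groups did not overlap, against 19.3% and 23.8%. Their estimates lay on both sides of 0, with 9 log2 fold changes above and 4 below, with a median of 0.018 and a range of -0.24 to 0.31. The targets were not tested as a group, and 1 rose, 1 fell and 11 did not pass. They were chosen with earlier results of these data known, so their shares cannot be read as an excess over these backgrounds.

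**Figure D2:**
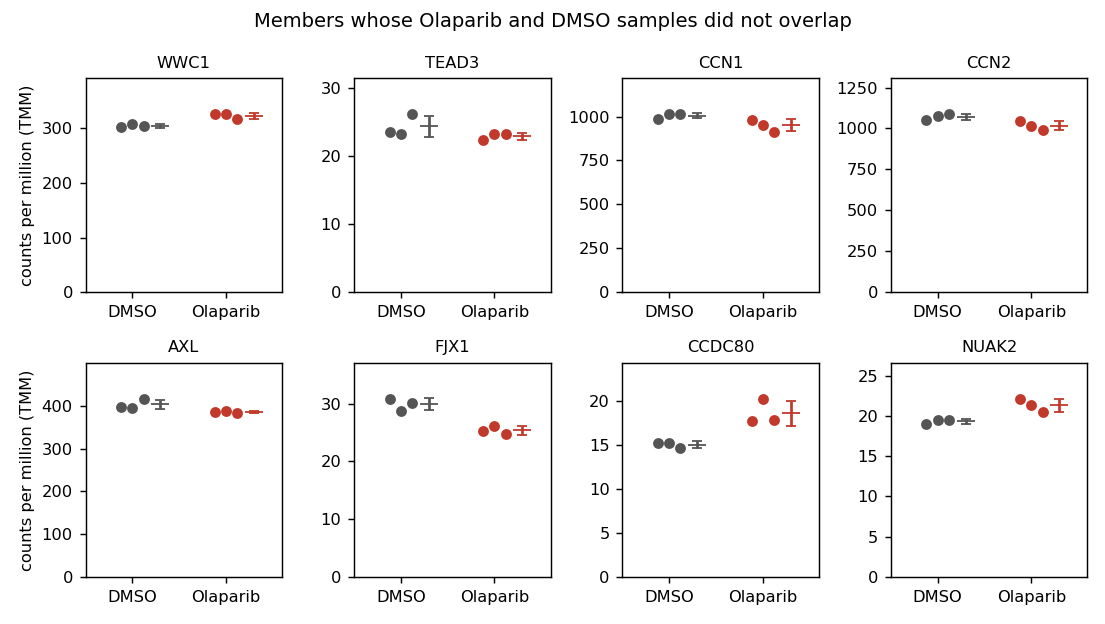
Normalized level (CPM, y axis, each panel with its own scale) in each of the 6 libraries for the members whose Olaparib and DMSO values did not overlap, with points for libraries and bars for the mean and SD of each group of 3. The gap between groups is widest relative to the level in CCDC80 (15.1 CPM in DMSO, 18.6 CPM in Olaparib) and FJX1 (29.9 and 25.4 CPM).

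CCDC80 (ENSG00000091986, chromosome 3, 112596797 to 112649530) measured 17.7, 20.3 and 17.9 CPM in the Olaparib replicates and 15.3, 15.3 and 14.6 CPM in the DMSO replicates. All Olaparib libraries were higher than all DMSO libraries, and Olaparib replicate 2 was the highest. The rise was 23.6% (95% interval 14.4% to 33.5%; log2 fold change 0.31, SE 0.055), with an edgeR adjusted p of 5.14e-04. Without Olaparib replicate 2 the log2 fold change was 0.24 with an adjusted p of 0.0133, below the 1.2-fold condition.

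FJX1 (ENSG00000179431, chromosome 11, 35618460 to 35620865, a single exon) measured 25.3, 26.2 and 24.7 CPM with Olaparib and 30.8, 28.8 and 30.2 CPM with DMSO. All Olaparib libraries lay below all DMSO libraries. It fell by 15.2% (95% interval -20.5% to -9.41%; log2 fold change -0.24, SE 0.046), with an edgeR adjusted p of 0.00165. Without DMSO replicate 2 the log2 fold change was -0.26, past the 1.2-fold condition.

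CCN1 (CYR61) and CCN2 (CTGF), secreted matricellular proteins, are the targets most used to read YAP activity. CCN1 (chromosome 1, 85580761 to 85584589) measured 982, 952 and 914 CPM with Olaparib and 987, 1013 and 1014 CPM with DMSO. CCN2 (chromosome 6, 131948176 to 131951372) measured 1047, 1013 and 991 CPM with Olaparib and 1051, 1074 and 1088 CPM with DMSO. In both genes every Olaparib library was below every DMSO library, and Olaparib replicate 1 and DMSO replicate 1 were the closest pair.

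The differences were small. CCN1 changed by -5.51% in the fit (95% interval -9.15% to -1.72%; log2 fold change -0.082, SE 0.028), with an edgeR adjusted p of 0.111. For CCN2 the estimate was -5.06% (95% interval -8.62% to -1.36%; log2 fold change -0.075, SE 0.027), with an adjusted p of 0.142. Neither passed in this fit, and without Olaparib replicate 1 both did, with adjusted p of 0.0132 for CCN1 and 0.0209 for CCN2. That was the 1 leave-one-out fit in which they passed. Without Olaparib replicate 3 the edgeR adjusted p were 0.519 for CCN1 and 0.502 for CCN2. ANKRD1, a nuclear ankyrin-repeat protein and the third of the standard YAP readouts, measured 204, 198 and 202 CPM with Olaparib and 199, 194 and 202 CPM with DMSO. It had a log2 fold change of 0.018 and an adjusted p of 0.858, with groups that overlapped.

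AXL, a receptor tyrosine kinase, measured 387, 388 and 383 CPM with Olaparib and 398, 396 and 416 CPM with DMSO. Its Olaparib libraries lay below its DMSO libraries, with a change of -4.33% (95% interval -8.02% to -0.485%) and an edgeR adjusted p of 0.255. NUAK2, a kinase of the AMPK family, measured 22.1, 21.4 and 20.6 CPM with Olaparib and 19.0, 19.5 and 19.5 CPM with DMSO. Its Olaparib libraries lay above its DMSO libraries, with a change of 10.4% (95% interval 3.09% to 18.2%; log2 fold change 0.14, SE 0.049) and an adjusted p of 0.111.

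The other 7 targets showed differences of at most 0.041 in log2 fold change, and their groups overlapped. They were MYOF, a membrane-repair protein (0.036), ASAP1, an Arf GTPase-activating protein (0.038), CRIM1, a transmembrane BMP antagonist (0.016), DOCK5, a Rac exchange factor (0.0038), F3, tissue factor (0.032), NT5E, the ectonucleotidase CD73 (0.041), and ANKRD1. Their edgeR adjusted p ran from 0.539 to 0.989. F3, the most abundant of the 7, measured 815, 774 and 781 CPM with Olaparib and 769, 768 and 781 CPM with DMSO. NT5E measured 395, 379 and 391.5 CPM with Olaparib and 376, 375 and 382 CPM with DMSO, so only Olaparib replicate 2 of its Olaparib libraries fell within the DMSO range.

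Promoters of the members were searched for the letters of the TEAD recognition motif. The motif searched was CATTCC on either strand, read as GGAATG on the other, in the 250 bases before each RefSeq start (GRCh38.p14). At least 1 match stood in 11.9% of 35116 promoters, at least 2 in 0.940% and at least 3 in 0.0826%, and by gene in 14.3%, 1.18% and 0.106% of 27305 genes. Promoters were found for 27 of the 34 genes, and STK3, CCN1, DOCK5, TEAD1, ASAP1, TEAD4 and CRIM1 had no entry. A match was present in 2 of 13 upstream genes (AMOTL2 and PTPN14), 1 of 5 TEAD complex genes (YAP1) and 4 of 9 target genes (CCN2, ANKRD1, NUAK2 and AXL). The targets were listed as YAP/TEAD targets to begin with, so their share of matches is not an independent result.

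The 250 bases before the start are given 5′ to 3′ on the gene's strand, with matches in capitals, for the target genes with more than 1 match and for the 2 genes that passed the test.
CCN2 (chr6:131951373-131951622, minus strand): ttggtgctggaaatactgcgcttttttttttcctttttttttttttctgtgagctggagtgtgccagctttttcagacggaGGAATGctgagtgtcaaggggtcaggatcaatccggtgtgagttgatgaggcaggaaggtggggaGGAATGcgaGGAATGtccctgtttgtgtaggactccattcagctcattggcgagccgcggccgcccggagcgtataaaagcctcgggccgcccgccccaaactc
ANKRD1 (chr10:90921088-90921337, minus strand): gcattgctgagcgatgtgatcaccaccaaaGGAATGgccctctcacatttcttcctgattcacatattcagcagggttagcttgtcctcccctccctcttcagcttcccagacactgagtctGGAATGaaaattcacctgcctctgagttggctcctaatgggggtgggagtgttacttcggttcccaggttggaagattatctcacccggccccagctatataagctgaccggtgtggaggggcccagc
NUAK2 (chr1:205321746-205321995, minus strand): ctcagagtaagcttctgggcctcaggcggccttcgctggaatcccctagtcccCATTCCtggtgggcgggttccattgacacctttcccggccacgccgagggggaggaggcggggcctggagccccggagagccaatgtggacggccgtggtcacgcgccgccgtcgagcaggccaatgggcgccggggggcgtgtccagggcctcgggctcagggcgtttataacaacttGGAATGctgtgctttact
CCDC80 (chr3:112641144-112641393, minus strand): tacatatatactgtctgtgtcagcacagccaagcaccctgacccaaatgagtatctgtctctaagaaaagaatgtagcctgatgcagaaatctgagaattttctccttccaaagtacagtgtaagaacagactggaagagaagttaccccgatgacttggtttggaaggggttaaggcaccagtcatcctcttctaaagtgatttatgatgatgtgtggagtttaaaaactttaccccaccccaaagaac
FJX1 (chr11:35618210-35618459, plus strand): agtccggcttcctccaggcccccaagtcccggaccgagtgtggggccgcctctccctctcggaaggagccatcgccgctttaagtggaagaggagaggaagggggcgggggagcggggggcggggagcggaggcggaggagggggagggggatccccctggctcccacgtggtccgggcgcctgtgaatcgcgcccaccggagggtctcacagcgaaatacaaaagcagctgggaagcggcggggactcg

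CCN2 held 3 matches, starting 169, 104 and 95 bases before the start, ANKRD1 held 2, at 220 and 128 bases, and NUAK2 held 2, at 197 and 18 bases. CCDC80 and FJX1, the genes that passed, held 0 matches in these windows. The RefSeq start used for CCDC80 lies inside the gene's GENCODE span. Among the genes with more than 1 match, CCN2 had a log2 fold change of -0.075, ANKRD1 0.018 and NUAK2 0.14, so their signs differed. A match describes letters only, and a window without one says nothing of binding by TEAD.

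The target genes also held the most abundant members. Per kilobase of exon, CCN2 stood at 458 CPM in DMSO, CCN1 at 272 and F3 at 268, whereas the highest upstream gene, AMOTL2, stood at 47.7 and the highest TEAD complex gene, YAP1, at 30.1. CCDC80, at 1.15, and DOCK5, at 1.25, were the lowest of the set. These levels use the union of all annotated exons as length, so genes with many alternative exons read low.

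**Figure D3:**
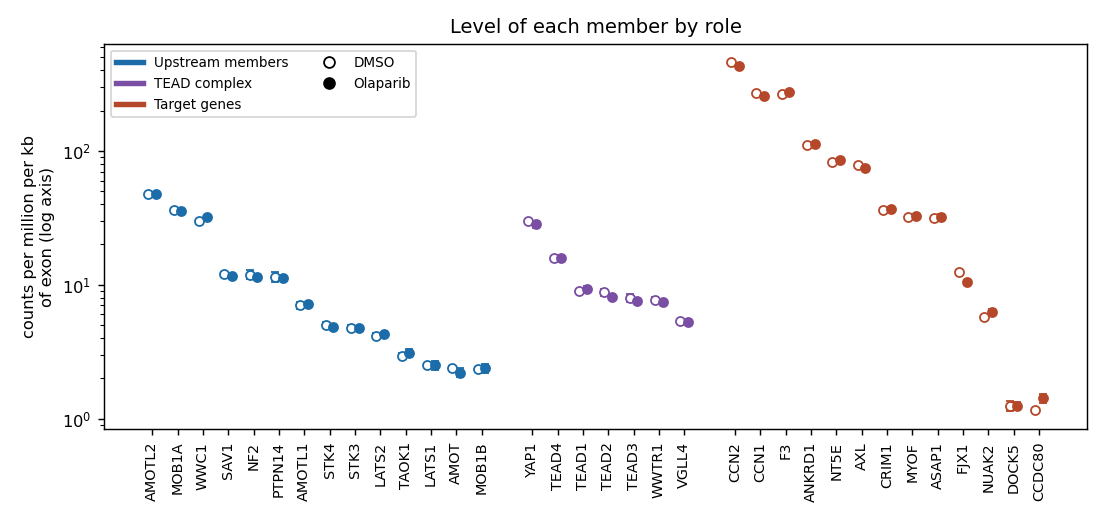
Level (CPM per kilobase of exon, log axis) of each of the 34 genes by role, with open circles for the DMSO mean, filled circles for the Olaparib mean and bars for the SD over 3 libraries. In DMSO, targets reach from 1.15 (CCDC80) to 458 (CCN2), upstream genes from 2.34 (MOB1B) to 47.7 (AMOTL2), and TEAD complex genes from 5.37 (VGLL4) to 30.1 (YAP1).

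The strand setting of the authors' counting is not given in the sources used here, and for 8 members over 5% of the exonic bases also lie in exons of another gene, mostly on the opposite strand. The share was 31.9% for SAV1 (with ATL1), 23.8% for VGLL4 (with ATG7), 11.9% for CCN2 (with LINC01013), 10.7% for TEAD2 (with CD37) and 10.1% for YAP1. CCDC80, FJX1, CCN1, NUAK2 and WWC1 shared none.

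**Figure D4:**
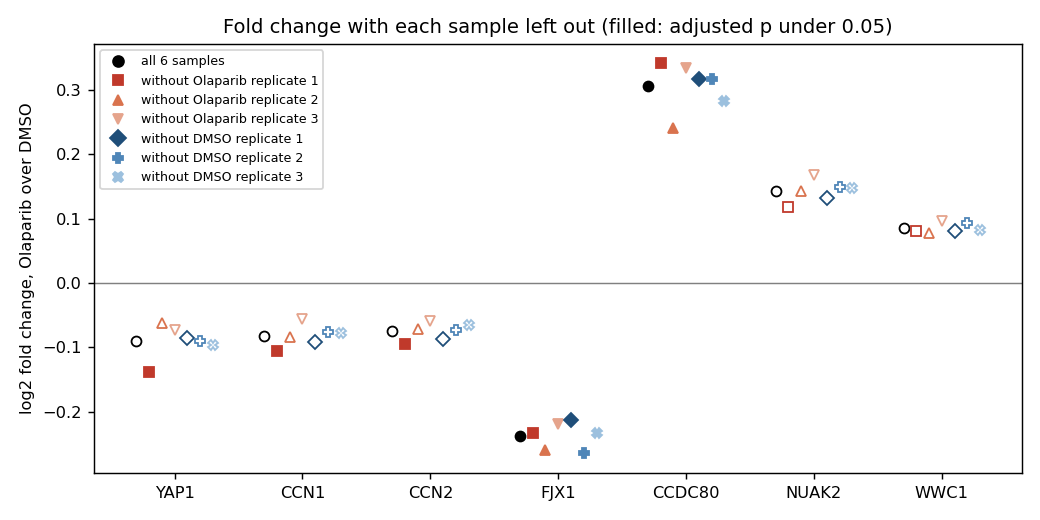
Log2 fold change (Olaparib over DMSO, y axis) of 7 members with all 6 libraries (circles) and with each library left out in turn, filled symbols having an edgeR adjusted p under 0.05. CCDC80 stays between 0.24 and 0.34 and FJX1 between -0.26 and -0.21, while YAP1 runs from -0.14 without Olaparib replicate 1 to -0.062.

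Other genes of the pathway were taken from a list of 53, of which FRMD1 and RASSF5 had 0 counts and 51 were tested. Of these, 1 fell, none rose and 50 did not pass, where 3.36% of all genes tested passed in either direction, with 29 log2 fold changes above 0, 22 below and a median of 0.020. At an unadjusted p under 0.05 edgeR gave 5 higher and 4 lower of the 51, against 7.83% and 6.97% of all genes tested, and DESeq2 and voom each gave 1 higher after adjustment, TNIK, a kinase of the MAP4K family. The gene that fell was AJUBA, a LIM-domain protein that restrains LATS kinases, at 434, 436 and 431 CPM with Olaparib and 457, 464 and 468 CPM with DMSO. All Olaparib libraries were lower, by a log2 fold change of -0.095 (SE 0.027) with an edgeR adjusted p of 0.0379, and AJUBA did not pass in 5 of the 6 leave-one-out fits, where its adjusted p reached 0.157.

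A further list held 11 known YAP/TEAD targets outside the set. Of the 11, 4 rose in edgeR, 0 fell and 7 did not pass, the same 4 genes passed in DESeq2 and voom, and 0 were lower at an unadjusted p under 0.05. The 4 were 36.4% of the list, against the 2.15% of all genes tested that were higher. Of the genes with at least 1 CPM, 5.15% passed in either direction. The list was chosen with earlier results of these data known, so its share cannot be read as an excess over these backgrounds. Of the 4, 3 also exceeded the 1.2-fold condition, and the median log2 fold change over the list was 0.11. IGFBP3, which binds insulin-like growth factors, measured 295, 288 and 292 CPM with Olaparib and 199, 198 and 201 CPM with DMSO (log2 fold change 0.55, edgeR adjusted p 3.47e-15). THBS1, thrombospondin-1, measured 642, 607 and 608 CPM with Olaparib and 510, 483 and 491 CPM with DMSO (log2 fold change 0.32, adjusted p 2.92e-09).

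In both genes the groups were far apart. EDN1, the vasoconstrictor peptide endothelin-1, went from 107 ± 3.08 to 123 ± 1.5 CPM (SD, n = 3 each; log2 fold change 0.20, edgeR adjusted p 2.56e-04). IGFBP3, THBS1 and EDN1 are also known targets of other signals, such as TGF-beta, and the part of any signal in their rise was not tested. Of the 13 target genes of the set, 9 had estimates above 0 and 4 below (CCN1, CCN2, AXL and FJX1). Of the latter, FJX1 alone passed the test. Whether both lists of targets differ was not tested.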

How the data were processed

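RNA-seq was performed on 3 Olaparib and 3 DMSO cultures of UWB1.289. The authors trimmed reads with Trimmomatic, aligned them to GRCh38 with STAR, marked duplicates with Picard and deposited whole-number counts per gene from featureCounts, without normalization. Whether duplicates were removed, and the strand setting, are not given in the sources used here. Groups came from the sample labels.

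Counts were tested in R 4.3.3 with edgeR 4.0.16 (TMM factors, quasi-likelihood fit, no covariates) over genes with more than 10 counts in total, with Benjamini-Hochberg adjustment over all 21729. Intervals are 95% intervals of the fitted log2 fold change, its SE being the absolute change over the root of F. The common biological coefficient of variation was 0.0353. Levels are CPM with TMM factors, and per kilobase levels use GENCODE 44 exon unions. The code was tested on simulated data. An exact permutation test of 3 against 3 cannot go below 0.1 and was not used. Alternatives were DESeq2 1.42.0, limma 3.58.1 voom, other size factors and filters, a replicate block and each library left out.

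The members and lists were chosen with earlier results of these data known. Every member is named, and of the other lists the genes that passed or had at most 10 counts, except 1 gene that is not reported here.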

Additional observations from a re-analysis of the deposited data

How the results depend on the processing

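CCDC80 and FJX1 passed in all 13 alternatives, which were DESeq2, limma voom, 2 other size factors, 2 other filters, the replicate block and 6 fits without 1 library. The number of members with an adjusted p under 0.05 was 2 with all libraries, 3 with DESeq2 (WWC1 added), 3 without a filter on low counts (CCN1 added) and 2 to 5 with 1 library left out, the 5 being without Olaparib replicate 1 (CCN1, CCN2 and YAP1 added). With the 1.2-fold condition it was 1, and 0 to 2 with 1 library left out, 0 without Olaparib replicate 2 and 2 without DMSO replicate 2. Genes that passed over the whole table numbered 730, and 525 with DESeq2, 671 with voom, 888 without a filter and 398 to 870 with 1 library left out. The count of other pathway genes and the medians by role stayed within the replicate spread or 1.5 times the count in every alternative.

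The replicate block gave 6 members (CCN1, CCN2, WWC1 and YAP1 added) and 1322 genes in all. Samples with the same number deviated from their group means with correlations of -0.103, 0.189 and -0.173 over 13603 genes, and not every sample correlated best with its own number, so the numbers were not taken as pairs.

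Signs changed in 9 members, none of which passed. With upper-quartile factors DOCK5 was -0.0053, LATS1 -0.0036 and STK3 -0.0087 in log2 fold change, and with filterByExpr STK3 was -0.0019. With 1 library left out, CRIM1 ran from -0.0079 to 0.040, DOCK5 from -0.056 to 0.071, LATS1 from -0.057 to 0.038, MOB1A from -0.040 to 0.023, MOB1B from -0.046 to 0.067, NF2 from -0.10 to 0.0020, PTPN14 from -0.075 to 0.051, STK3 from -0.042 to 0.023 and TEAD4 from -0.032 to 0.024. The cause of these changes was not tested. The depth and 3 libraries a group left intervals of several percent for most members. The smallest difference that could pass was not computed. Estimates of 10.4% for NUAK2 and -8.35% for TEAD2 did not pass after adjustment in edgeR, whereas -6.39% for AJUBA did.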
